A study of Mus musculus with 63 samples.

Results

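Macrophages from the peritoneum of old wild-type female mice were compared between 5 libraries labelled interferon-gamma treated (IFN) and 5 labelled untreated (UT). These are 10 of the 63 libraries of the series, chosen by the column names of the deposited count table, which give strain, sex, age, treatment and a replicate number, with no measured value in the choice. All 10 libraries carry the labels wild-type (B6), female and old, an age the study's design text sets at 18 to 21 months. Every mouse had 3% thioglycollate broth injected into the abdomen 72 h before collection, and slow-release buprenorphine for pain. Cells that stuck to the plate were given 100 U of interferon-gamma (IFN-γ), or water as vehicle, for 18 h, and polyadenylated RNA was sequenced. The rest of the series adds young mice of 2 to 3 months, males, and mice with the R1441C change knocked into Lrrk2, which encodes a kinase of the endolysosomal system. Of these, wild-type old males (5 IFN and 3 UT libraries), wild-type young females (3 and 3) and R1441C knock-in old females (5 and 5) were used here to ask whether the effect of the treatment label differed between groups. The labels do not say whether the numbered replicates are separate animals. The p-values rest on the spread within groups over all 63 libraries, most of them outside this comparison, and that spread may be technical.

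IFN-γ, made mainly by T and natural killer cells, binds the receptor pair Ifngr1 and Ifngr2, and the kinases Jak1 and Jak2 then pass the signal on to transcription factors. In macrophages this pathway is known to raise the guanylate-binding proteins and immunity-related GTPases that attack microbial vacuoles, chemokines such as Cxcl9, the nitric oxide synthase Nos2, and, through the regulator Ciita, the class II antigen presentation genes. The peritoneal cavity holds B-1 cells, other B cells, T cells and mast cells beside its macrophages, and washing a plate of adherent cells does not remove all of them.

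Total counts of the 10 libraries ran from 97.2 to 101.7 M, against 73.6 to 106.6 M over the series. Levels below are counts scaled to library size (CPM), listed from replicate 1 to replicate 5 of each label, and changes are log2 fold changes of IFN over UT with their standard error. Unless another setting is named, adjusted p-values come from a single edgeR quasi-likelihood fit of all 63 libraries and are adjusted over the 22147 genes tested. Values given without a library, or with added terms, come from edgeR fits repeated in that setting, each with its own adjustment. Xist, the RNA of the inactive X chromosome, stood at 120.1 to 187 CPM in the UT and 144 to 240.4 CPM in the IFN libraries, and the Y-linked Ddx3y at no more than 1.01 CPM, as the female label has it. The macrophage markers Csf1r (916 to 1324 CPM in UT, 885 to 1814 in IFN) and Adgre1 (491 to 961 and 566 to 1037) were abundant in every library. Csf1r is the receptor that keeps macrophages alive, and Adgre1 is the F4/80 antigen. Lrrk2 itself, unaltered in these animals, changed by 0.38 ± 0.23 (adjusted p = 0.267).

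Gbp2 and Ciita, genes at the core of the IFN-γ response, overlapped between the labels. Gbp2, a guanylate-binding GTPase, stood at 7510.0, 7246, 7301, 5686 and 6433 CPM in UT and at 5166, 4599, 5089, 5717 and 4372 CPM in IFN. Both labels were thus high, and the ranges overlapped through IFN 4 alone, the other IFN libraries lying below every UT library. The change was -0.45 ± 0.47 (adjusted p = 0.557), with a standard error that takes in the spread within the other groups. In wild-type young females the same gene averaged 85.2 CPM (13.5 to 195) over 3 UT libraries and 744 CPM (655 to 883) over 3 IFN libraries. The lowest old female library lay above the highest young one, for Ciita as well (262 CPM against 90.2 CPM on average in young IFN, and 11.9 CPM in young UT). Both genes therefore followed the age label, also in wild-type old males, whose Gbp2 averaged 6253 CPM in UT and 5087 CPM in IFN. Whether every library received the treatment on its label was not tested, and all directions below are between labels.

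Several libraries stood apart from the rest. IFN 2 had the highest level of B cell transcripts and extreme values of many macrophage genes, so most results are also given without it. UT 1, IFN 1 and IFN 2 shared a high level of Nos2 (907, 739 and 923 CPM, against 108 to 147 CPM in the other 7), which crosses the treatment label. The same 3 libraries had the lowest summed level of 17 mesothelial cell and fibroblast genes, at 59.3, 79.6 and 24.1 CPM in that order, against 279 to 431 CPM in the others. UT 2 and UT 3 resembled each other more than any other pair within these 2 groups but differed by more than counting noise, and were kept as separate libraries.

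Of the 22147 genes tested, 1929 (8.71%) were called higher and 2323 (10.5%) lower in IFN at an adjusted p of 0.05, and the 5 IFN libraries lay wholly above or below the 5 UT libraries for 2027 genes (9.15%). Without IFN 2 there were 825 higher (3.73%) and 780 lower (3.52%), and 1558 of the 4252 calls kept their direction and remained called. With the scaling that DESeq2 uses (relative log expression) in place of TMM, the split was 2119 higher and 1664 lower, and a fit of only these 10 libraries called 677 higher and 175 lower. The rises were large and the falls small: the median size of change was 1.80 on the log2 scale for the first and 0.32 for the second, and 1324 rises but 165 falls exceeded 2-fold.

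**Figure D1:**
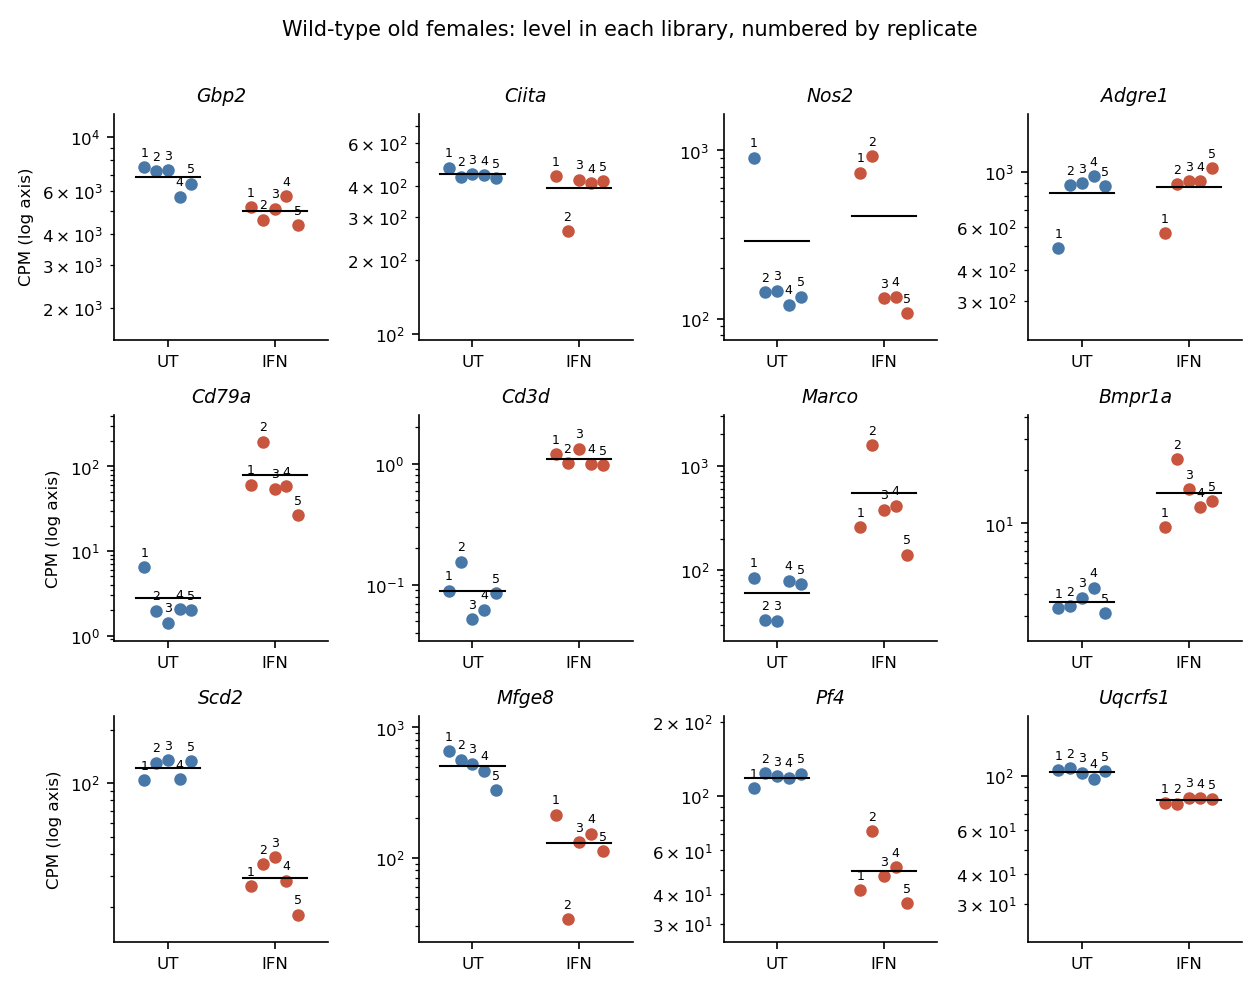
Level of 12 genes in each library (CPM, log axis), UT in blue and IFN in red, numbered by replicate, with a line at the group mean. Gbp2 and Ciita overlap between the labels, Nos2 is high in UT 1, IFN 1 and IFN 2, and Cd79a, Cd3d, Bmpr1a, Scd2, Mfge8, Pf4 and Uqcrfs1 separate all 5 libraries of each label.

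To set lymphocyte transcripts apart from those of macrophages, 330 of the tested genes were taken as lymphocyte genes, either markers or immunoglobulin and T cell receptor genes. A further 1407 were taken as tracking lymphocytes because they rose and fell with a B cell or a T and NK cell score in the other 53 libraries (a correlation of at least 0.5 after group means were removed). All other genes form the macrophage side, which is a label for what remains and not a proof of origin. Among the 1929 genes called higher, 225 were lymphocyte genes (11.7%, against 1.49% of all tested) and 821 tracked lymphocytes (42.6%, against 6.35%). The remaining 883 fell on the macrophage side. That number depends on the cut: it was 658 at a correlation of 0.4, 1144 at 0.6, and 678 when only wild-type libraries were used. The 1046 rises on the lymphocyte side had a median of 2.61 on the log2 scale, and 520 of them remained called without IFN 2. The 883 rises on the macrophage side had a median of 1.16, and 287 remained. Of the 2323 genes called lower, 2318 were on the macrophage side, which holds 20410 of the 22147 tested genes. Their median size was 0.32, and 751 of them remained without IFN 2. Among the falls, 600 (25.8%, against 8.98% of all tested) ran opposite to lymphocytes. These had a negative correlation at least as strong as the cut with either score, and tracked neither.

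**Figure D2:**
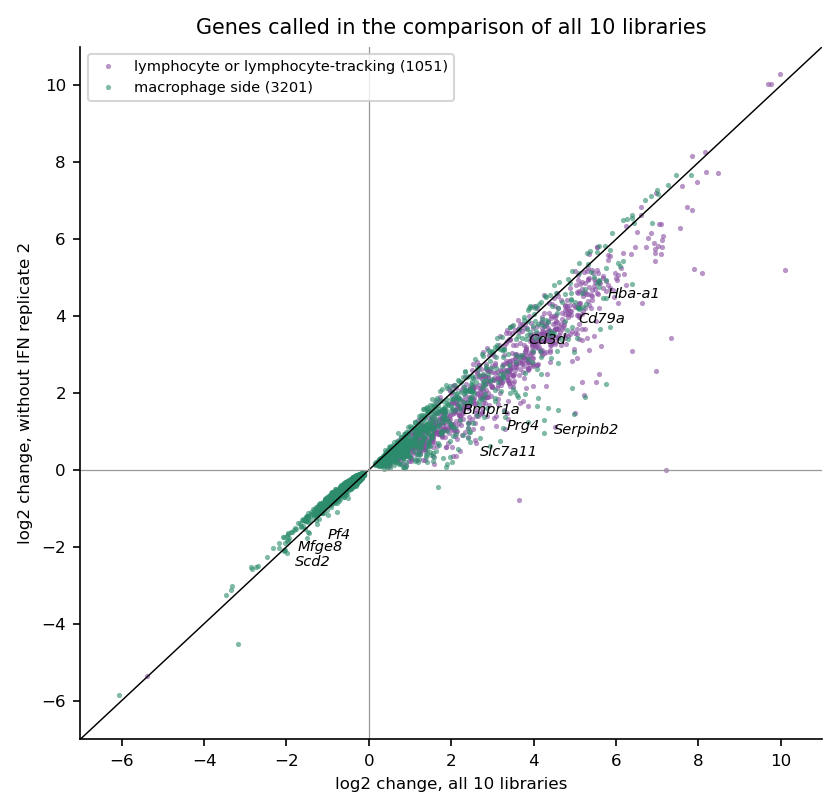
Log2 change of each of the 4252 called genes in all 10 libraries (x axis) and without IFN 2 (y axis), with the line of equal values; lymphocyte and tracking genes in purple, the macrophage side in green. Bmpr1a, Scd2, Mfge8 and Pf4 lie near the line, while Serpinb2, Slc7a11 and Prg4 fall well below it.

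Starting with the IFN-γ pathway itself, none of the 11 guanylate-binding proteins and none of the 9 immunity-related GTPases was called by edgeR, by DESeq2, or at an unadjusted p under 0.05. A fit of only the 10 libraries, which leaves out the spread of other groups, called none of the 11 and 1 of the 9 GTPases higher. Their median changes were 0.09 and 0.20 on the log2 scale, against -0.02 for all genes tested. Gbp5, a member that promotes inflammasome assembly, stood at 997, 729, 744, 812 and 759.5 CPM in UT and 1067, 1227, 866, 762 and 799 CPM in IFN, so that the labels overlapped. All 11 guanylate-binding proteins overlapped, whereas the 5 libraries of each label lay apart for 2 of the 9 GTPases, against 9.15% of all genes. These were Irgm1, which changed by -0.19 (adjusted p = 0.562), and Gm4951, which changed by 0.54 (adjusted p = 0.407), both named after their values were seen. The promoters of Gbp2 and Gbp5 are printed because they carry the letters through which interferons are known to act, in genes that were not called between the labels. They are the 250 bases before each start site in RefSeq (GRCm38.p6), at chr3:142620413-142620662 and chr3:142496684-142496933, both on the plus strand. Capitals mark the interferon-stimulated response element, here TTTC and TTTC with 2 bases of any kind between them, searched on both strands.
Gbp2: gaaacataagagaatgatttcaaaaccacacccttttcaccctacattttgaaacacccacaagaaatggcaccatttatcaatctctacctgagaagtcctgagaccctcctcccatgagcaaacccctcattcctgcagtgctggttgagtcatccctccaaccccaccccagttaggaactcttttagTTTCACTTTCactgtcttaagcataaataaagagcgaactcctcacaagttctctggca
Gbp5: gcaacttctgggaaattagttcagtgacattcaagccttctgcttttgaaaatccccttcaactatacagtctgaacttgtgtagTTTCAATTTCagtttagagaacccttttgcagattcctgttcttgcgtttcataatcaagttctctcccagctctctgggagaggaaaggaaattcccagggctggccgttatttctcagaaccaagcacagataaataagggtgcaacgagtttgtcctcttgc
The match lies 59 bases before the start of Gbp2 and 165 before that of Gbp5. All 5 guanylate-binding protein promoters in the table hold it, against 3.46% of all 27025 genes with a promoter, and the other 6 members had no entry. The shorter gamma-activated site TTCNNNGAA was in 2 of 11 promoters of the IFN-γ-induced chemokines and effectors, against 8.13% of all genes.

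Upstream in the pathway, 2 of 18 receptor, JAK-STAT, IRF and SOCS genes were higher and 4 lower, and without IFN 2 the counts were 0 and 3. Ifngr2, the signalling chain of the IFN-γ receptor, stood at 218, 191, 198, 190.0 and 189 CPM in UT and 173, 158, 162, 173 and 168 CPM in IFN. Every IFN library lay below every UT library, a change of -0.24 ± 0.055 (adjusted p = 0.00162; -0.21 without IFN 2, adjusted p = 0.0211). Irf8, a transcription factor of the macrophage lineage, fell by 0.61 ± 0.12 (adjusted p = 0.000165; -0.49 without IFN 2) with ranges that touched. It stood at 1312, 972, 937, 788 and 900.0 CPM in UT against 822, 447, 608, 742 and 602 CPM in IFN. Irgm2, an immunity-related GTPase, changed by 0.32 ± 0.16 (adjusted p = 0.161) and Igtp, another, by 0.4 ± 0.22 (adjusted p = 0.212).

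Among 16 IFN-γ-induced chemokines and effectors, 2 were higher and 1 lower, and none was called without IFN 2. The labels lay apart for 2 of the 16, Cxcl10 (0.96, adjusted p = 0.112) and Il12a (1.42, adjusted p = 0.0748), neither of them called. Cxcl9, which draws T cells, ran from 1091 to 4071 CPM in UT, highest in UT 1, and from 1379 to 2925 CPM in IFN, a change of 0.18 ± 0.67 (adjusted p = 0.898). Cxcl11, a ligand of the same receptor, was called higher (1.98 ± 0.53, adjusted p = 0.00613) on the strength of IFN 2. That library had 8.2 CPM and the other 4 had 0.58 to 0.928 CPM, and without it the change was 0.35 (adjusted p = 0.69). Nos2 differed by 0.49 ± 0.83 (adjusted p = 0.747). It followed the 3 libraries named above rather than the label.

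Antigen presentation divided by gene. Of 14 class II genes, 4 were higher and 1 lower (2 and 1 without IFN 2), and 3 of the rises (H2-Ob, H2-Oa and H2-Eb2) were genes that tracked lymphocytes in the other libraries. H2-Ob, a chain of the class II regulator H2-O, stood at 4.63, 1.87, 1.86, 2.48 and 2.32 CPM in UT and 35, 108, 11.9, 10.5 and 18.1 CPM in IFN. All IFN libraries were above all UT libraries, by 3.81 ± 0.63 (adjusted p = 2.78e-05; 2.86 without IFN 2), and H2-Eb2 rose by 4.51 ± 0.72 (adjusted p = 1.54e-05; 3.33 without it). H2-O is known above all from B cells. Ciita moved by -0.19 ± 0.3 (adjusted p = 0.721). The called fall was Ifi30, the lysosomal thiol reductase that opens antigens for loading, at 1435, 1198, 1136, 928 and 1145 CPM in UT and 974, 611, 727, 919 and 680.3 CPM in IFN (-0.58 ± 0.11, adjusted p = 0.000246; -0.49 without IFN 2). Its highest IFN values overlapped the lowest UT value. Of 23 class I and immunoproteasome genes 2 were higher and 1 lower, none without IFN 2. The nonclassical class I gene H2-Q7 was higher by 1.41 ± 0.43 (adjusted p = 0.017), and that call was lost without IFN 2 (adjusted p = 0.107), without UT 2 (0.0552) and without UT 3 (0.0539). Pdcd1lg2, the checkpoint ligand PD-L2, fell from 55.4 to 90.7 CPM in UT to 18.6 to 45.5 CPM in IFN, with no overlap (-1.07 ± 0.27, adjusted p = 0.00398; -0.9 without IFN 2). It was the called fall among 15 costimulatory and checkpoint ligands, of which 2 were higher in all 10 libraries and none without IFN 2.

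Genes known for the type I interferon response were higher, but mostly through a single library. Of 33 such genes 16 were higher and none lower (edgeR; none lower by DESeq2 and 1 at an unadjusted p under 0.05), with a median of 0.49. Without IFN 2 the count was 3, without UT 2 it was 10, and with the 3 Nos2-high libraries left out it was 0. In the fit of the 10 libraries it was 1. Ddx58, the RNA sensor RIG-I, stood at 34.3, 33.4, 33.5, 36.7 and 31.9 CPM in UT and 45.8, 117, 45, 39.1 and 50.4 CPM in IFN. Its IFN libraries were all above its UT libraries, IFN 2 far above, and it rose by 0.81 ± 0.16 (adjusted p = 0.000189; 0.43 without IFN 2, adjusted p = 0.00899). Ifi44, an antiviral GTPase-like protein, rose by 1.99 ± 0.41 (adjusted p = 0.000415; 1.2 without IFN 2, adjusted p = 0.0298), and the exonuclease gene Isg20 by 1.36 ± 0.27 (adjusted p = 0.000224; 0.55 without it, adjusted p = 0.04). Ddx58 and Isg20 tracked lymphocytes in the other libraries, whereas Ifi44 did not.

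**Figure D3:**
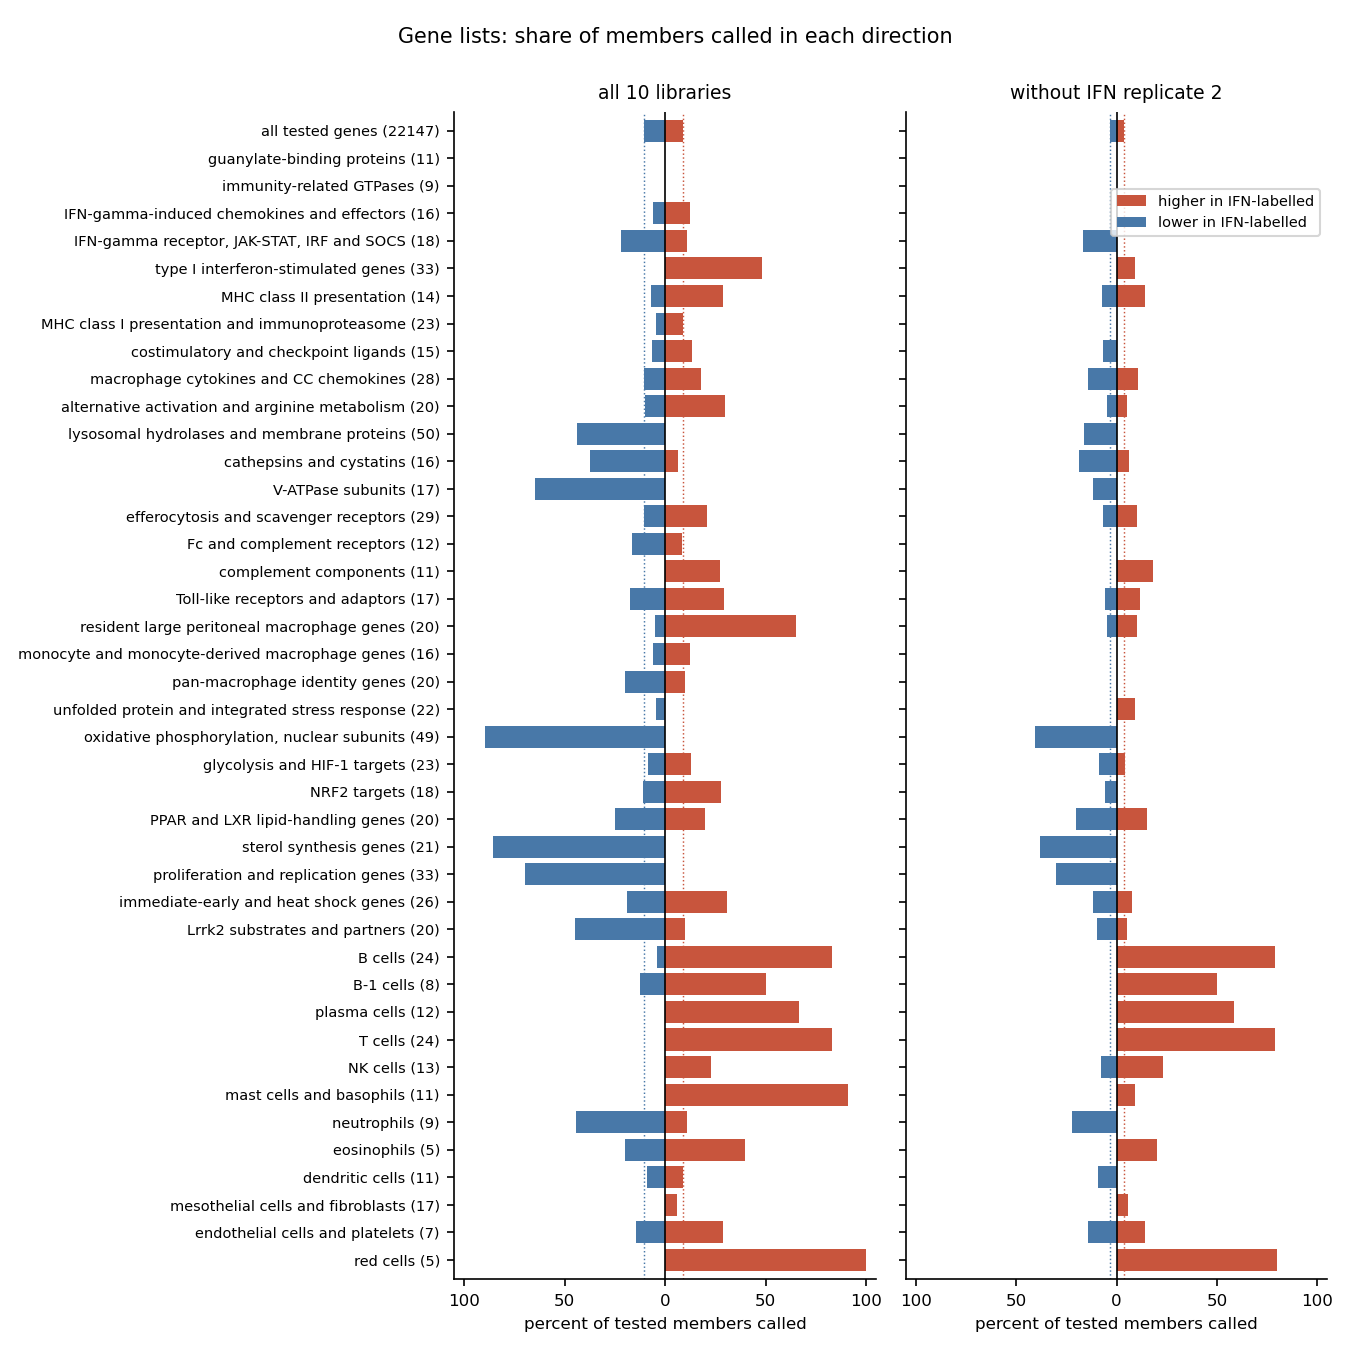
Percent of the tested members of each gene list called higher (red, to the right) or lower (blue, to the left) in IFN, with all 10 libraries and without IFN 2; the number tested is in brackets and dotted lines mark the shares over all tested genes. B cell, T cell and plasma cell genes are called higher with or without IFN 2, while the guanylate-binding proteins show no call.

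Transcripts of lymphocytes were higher in IFN than in UT. Of 24 B cell genes 20 were higher and 1 lower, with a median of 4.41 on the log2 scale (19 higher and a median of 3.53 without IFN 2). None of the 24 was at 0 in all UT or in all IFN libraries. Their summed level was 492, 515, 507, 476 and 500 CPM in UT and 1212, 3162, 1217, 1345 and 711 CPM in IFN. The sum was thus higher in each IFN library than in any UT library, highest in IFN 2 and lowest in IFN 5. In UT it came mostly from Cd37, Cd22 and Blnk, the members with the highest UT means (201, 127 and 101 CPM), none of which was called higher (231, 99.7 and 94.5 CPM in IFN). Ighm, the IgM heavy chain, went from a mean of 23 to 537 CPM (4.54, adjusted p = 2.74e-06; 4.03 without IFN 2), and the sum understates the change of such genes. In bulk RNA a smaller number of cells of a type and less RNA in each of them cannot be told apart. Cd79a, which with Cd79b carries the signal of the B cell receptor, stood at 6.47, 1.97, 1.42, 2.03 and 1.98 CPM in UT and 61.1, 197, 54.5, 58.4 and 26.6 CPM in IFN. The labels did not overlap, and the rise was 4.84 ± 0.62 (adjusted p = 2.73e-07; 4.19 without IFN 2). Cd79b rose by 4.55 ± 0.6 (adjusted p = 5.64e-07), the heavy chain constant gene Ighd by 5.33 ± 0.68 (adjusted p = 2.86e-07), the octamer coactivator Pou2af1 by 5.4 ± 0.7 (adjusted p = 3.4e-07) and the kinase Blk by 5.1 ± 0.79 (adjusted p = 8.63e-06). Without IFN 2 these changes were 3.69, 4.4, 4.56 and 4.0, all still called.

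The octamer is the letter group by which Pou2af1 and its partners are known to act at B cell promoters. The letters ATGCAAAT, searched on both strands, were in 2 of 17 B cell promoters of the RefSeq table, those of Blnk and Vpreb3, against 1.81% of all genes. That of Vpreb3, a gene of early B cells, is printed with its match in capitals (read on the other strand, 45 bases before the start). It lies at chr10:75948050-75948299 of GRCm38.p6, on the plus strand.
Vpreb3: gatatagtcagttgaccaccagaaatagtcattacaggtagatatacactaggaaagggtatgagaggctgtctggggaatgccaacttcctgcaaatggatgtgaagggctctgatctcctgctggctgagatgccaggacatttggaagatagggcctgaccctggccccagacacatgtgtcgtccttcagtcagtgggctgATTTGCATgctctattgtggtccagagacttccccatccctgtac
Vpreb3, singled out for this match after its values were seen, rose by 2.9 ± 0.57 (adjusted p = 0.00026; 2.64 without IFN 2) from a UT range of 0.0208 to 0.133 CPM to 0.295 to 0.818 CPM.

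Most genes of antibody-secreting cells and T cells were higher too, although the summed levels of these lists were not. The plasma cell sum was 312 to 462 CPM in UT and 299.6 to 365 CPM in IFN, and the T cell sum 207 to 310.1 CPM in UT and 88.4 to 259 CPM in IFN. The first was mostly Xbp1 and Sdc1 and the second mostly Il7r, which averaged 258 CPM in UT and 166 CPM in IFN (-0.64, adjusted p = 0.175). Of 12 plasma cell genes 8 were higher (7 without IFN 2, 4 without the 3 Nos2-high libraries). Mzb1, an endoplasmic reticulum protein of antibody-making cells, rose by 4.97 ± 0.73 (adjusted p = 3.1e-06; 4.3 without IFN 2). Derl3, which clears misfolded protein from that compartment, stood at 0.246, 0.3, 0.157, 0.124 and 0.343 CPM in UT and 0.833, 1.29, 4.78, 5.11 and 0.315 CPM in IFN. It was high in IFN 3 and IFN 4 and within the UT range in IFN 5, and its change was 3.39 ± 0.6 (adjusted p = 7e-05; 3.57 without IFN 2). Of 24 T cell genes 20 were higher, 19 without IFN 2 and 12 without the 3 Nos2-high libraries, with a median of 2.60. Cd3d, a chain of the T cell receptor complex, stood at 0.0896, 0.155, 0.0522, 0.0623 and 0.0857 CPM in UT and 1.19, 1.01, 1.33, 0.998 and 0.973 CPM in IFN. The IFN libraries lay close together, IFN 2 included, and the UT libraries far below (3.62 ± 0.61, adjusted p = 3.06e-05; 3.67 without IFN 2). Cd8a, the coreceptor of cytotoxic T cells, rose by 3.65 ± 0.64 (adjusted p = 5.67e-05; 3.7 without IFN 2) and the adhesion receptor Cd2 by 3.67 ± 0.55 (adjusted p = 4.46e-06; 2.85 without it). NK cell genes gave 3 of 13 higher with a median of -0.41, and 3 higher and 1 lower without IFN 2. Ctla4, a checkpoint receptor that stood here in the B-1 cell list, where 4 of 8 genes were higher and 1 lower, rose by 5.48 ± 0.97 (adjusted p = 6.53e-05; 4.89 without IFN 2).

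The antibody genes in these libraries differed in kind as well as in amount. Immunoglobulin V segments had 1777, 1371, 1445, 1292 and 860 counts in UT and 16199, 51579, 38276, 33513 and 6677 in IFN. All UT libraries were led by Igkv14-126 or Ighv11-2, segments known from B-1 cells, with 15.9% to 21.4% of V counts for the leading segment. In IFN 3 the segments Ighv5-6 and Igkv8-30 made up 83.4% of V counts, and in IFN 4 they made up 84.0%. The same pair made up 83.2% in the young female library IFN 2. IFN 2 was led by Igkv1-117 with 14.1%, as was young IFN 1 with 18.2%, and IFN 5 was led by Igkv12-89 with 17.7%, as was young IFN 5 with 19.3%. IFN 1 was led by Igkv6-15 with 25.8%. The 3 young UT libraries had 800 to 2356 V counts, all led by Igkv14-126. How libraries labelled with different ages, and IFN 3 and IFN 4 within this comparison, came to share their leading segments was not tested. IFN 3 and IFN 4 were counted as separate libraries in the tests. With these 2 joined, and UT 2 and UT 3 joined, 1735 genes were higher and 2077 lower.

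**Figure D4:**
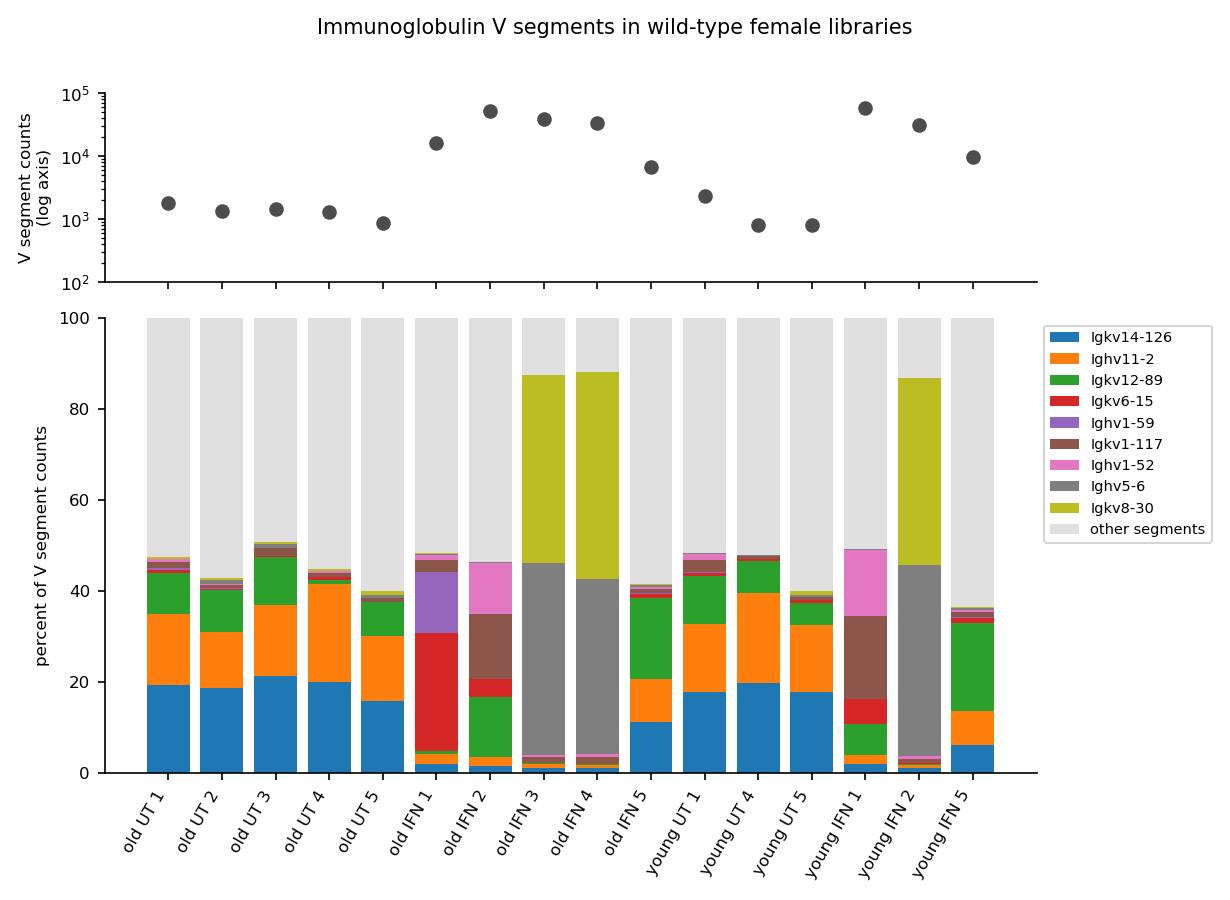
Immunoglobulin V segment counts (top, log axis) and the percent of them from 9 segments (bottom) in the 10 old and 6 young wild-type female libraries. IFN 3 and IFN 4 of the old and IFN 2 of the young females consist mostly of Ighv5-6 and Igkv8-30, while the UT libraries are led by Igkv14-126 or Ighv11-2.

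Mast cell and red cell genes also moved with the label. Of 11 mast cell and basophil genes 10 were higher, with summed levels of 4.06 to 6.62 CPM in UT and of 11.0, 82.6, 28.5, 34.2 and 9.38 CPM in IFN, but 1 was called without IFN 2. Cpa3, a mast cell protease, was higher by 2.29 ± 0.65 (adjusted p = 0.0101; 1.56 without IFN 2, adjusted p = 0.126). All 5 red cell genes were higher, 4 without IFN 2 and none without the 3 Nos2-high libraries. Their sum was 1.22 to 2.92 CPM in UT and 166, 271, 1.44, 1.55 and 77.9 CPM in IFN. Globin RNA was therefore high in IFN 1, IFN 2 and IFN 5, and at the UT level in IFN 3 and IFN 4. Hba-a1 changed by 5.55 ± 1.3 (adjusted p = 0.00194) and Hbb-bs by 5.76 ± 1.36 (adjusted p = 0.00204), both with overlapping groups (4.86 and 4.95 without IFN 2). The part that other cells had in the changes of macrophage genes was not tested in isolation. In a fit with the B cell and the T and NK cell scores as terms 886 genes were higher and 589 lower, and 164 of the 4252 calls were kept. Of 81 called genes given with values here, 50 kept their direction in that fit and 5 their call, and the values of those that turned are in the closing section. H2-Ob (-1.33, adjusted p = 9.05e-05), F5 (-2.0, adjusted p = 0.00862) and Prg4 (-1.94, adjusted p = 0.0299), called higher without the terms, were called lower with them. List medians turned too, to 0.14 for lysosomal genes (5 called higher), 0.14 for V-ATPase subunits (1 higher) and 0.17 for sterol synthesis (1 lower). Proliferation genes turned to 0.25, type I interferon genes to -0.24 (1 lower) and resident macrophage genes to -1.12 (9 lower), while the respiratory chain stood at -0.12. The mean log2 level of the B cell genes was 0.61 to 1.73 in UT and 3.51 to 5.81 in IFN, so the terms themselves separate the labels.

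On the macrophage side, some genes rose or fell in every library whether or not IFN 2 was counted. Bmpr1a, a receptor for bone morphogenetic proteins, stood at 3.33, 3.41, 3.82, 4.36 and 3.12 CPM in UT and 9.55, 23, 15.7, 12.3 and 13.3 CPM in IFN. All IFN libraries lay above all UT libraries, a rise of 2.03 ± 0.16 (adjusted p = 1.13e-12; 1.83 without IFN 2). Pf4, the platelet and macrophage chemokine CXCL4, stood at 107, 124, 120.4, 119 and 123 CPM in UT and 41.4, 72, 47.1, 51.3 and 36.6 CPM in IFN. No library overlapped, and the change was -1.26 ± 0.16 (adjusted p = 3.4e-07; -1.41 without IFN 2). Ksr2, a scaffold of the MAP kinase pathway, fell by 1.21 ± 0.18 (adjusted p = 3.27e-06; -0.99 without IFN 2). Bmpr1a, Pf4, Ksr2, Trim29 and Derl3 were the genes given with values that stayed called with lymphocyte scores as terms. Il18, an inflammasome cytokine, rose by 0.93 ± 0.18 (adjusted p = 0.000137; 0.58 without IFN 2), and the neutrophil chemokine Cxcl1 rose by 1.41 ± 0.33 from 0.202 to 0.467 CPM in UT (adjusted p = 0.00215; 1.22 without IFN 2). Ccl6 fell by 0.91 ± 0.21 (adjusted p = 0.00146; -0.71 without IFN 2). Il10, an anti-inflammatory cytokine, rose by 4.21 ± 0.76 (adjusted p = 7.87e-05; 2.98 without IFN 2), and it tracked lymphocytes. Over 28 cytokines and CC chemokines, 5 were higher and 3 lower, and without IFN 2 the counts were 3 and 4.

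Lipid-handling genes divided, with 4 of 20 PPAR and LXR genes higher and 5 lower and a median of 0.06. Scd2, a fatty acid desaturase, stood at 104, 131, 135, 105 and 133 CPM in UT and 26.2, 35, 38.2, 28.2 and 18.2 CPM in IFN. Every IFN library was far below every UT library, a change of -2.06 ± 0.28 (adjusted p = 6.73e-07; -2.11 without IFN 2). Lpl, the lipase that takes up lipoprotein fat, fell from 2445 to 2630.0 CPM to 674 to 1633 CPM (-0.98 ± 0.16, adjusted p = 2.51e-05; -0.79 without IFN 2). Abcg1, an exporter of cholesterol, fell by 1.04 ± 0.17 (adjusted p = 1.76e-05; -0.85 without it). Scd1, a relative of Scd2 that tracked lymphocytes, rose by 1.94 ± 0.36 (adjusted p = 0.00014; 1.27 without IFN 2). Without IFN 2, 3 of the 20 genes were higher and 4 lower.

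Of 21 sterol synthesis genes, 18 were lower and none higher (none by DESeq2 or at an unadjusted p under 0.05), with a median of -0.51. Without IFN 2 there were 8 lower, without the 3 Nos2-high libraries 6, and in the fit of these 10 libraries alone 10. Sc5d, a late enzyme of cholesterol synthesis, stood at 36, 40.2, 39.8, 38.1 and 41 CPM in UT and 24.6, 18.5, 26.6, 26.9 and 24.7 CPM in IFN. The labels did not overlap, a change of -0.69 ± 0.13 (adjusted p = 0.000101; -0.59 without IFN 2). Hmgcs1, an early enzyme of the pathway, is the member whose promoter held TCACNCCAC, a form of the sterol regulatory element, among 14 members with a promoter in the table (1.22% of all genes hold it, either strand). Its 250 bases lie at chr13:119690101-119690350 of GRCm38.p6, plus strand, with the match in capitals 137 bases before the start.
Hmgcs1: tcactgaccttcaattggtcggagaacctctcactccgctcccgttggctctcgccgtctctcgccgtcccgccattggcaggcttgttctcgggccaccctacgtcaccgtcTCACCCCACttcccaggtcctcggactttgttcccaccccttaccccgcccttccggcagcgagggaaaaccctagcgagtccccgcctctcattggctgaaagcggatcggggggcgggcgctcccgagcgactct
Hmgcs1, singled out for that match after its values were seen, changed by -0.51 ± 0.17 (adjusted p = 0.0308). That call was lost without IFN 1 (0.0703), IFN 2 (0.174), UT 4 (0.0656) or UT 5 (0.085).

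Genes of the mitochondrial respiratory chain fell by small and even amounts. Of 49 nuclear subunits 44 were lower and none higher (none by DESeq2 or at an unadjusted p under 0.05), with a median of -0.32. The count was 20 without IFN 2, 4 without the 3 Nos2-high libraries and 9 in the fit of the 10 libraries. Uqcrfs1, the Rieske iron-sulfur protein of complex III, stood at 106, 107, 103, 97.4 and 105 CPM in UT and 77.4, 77, 81.6, 81 and 80.5 CPM in IFN. The UT libraries all exceeded the IFN libraries, which lay within a narrow band, and the change was -0.38 ± 0.068 (adjusted p = 7.01e-05; -0.35 without IFN 2). Sdha, the catalytic subunit of complex II, fell by 0.28 ± 0.053 (adjusted p = 0.000139; -0.24 without it). Of 23 glycolysis and HIF-1 target genes, 3 were higher and 2 lower, against 1 and 2 without IFN 2.

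Lysosomal genes were also lower, while receptors of phagocytosis were mixed. Of 50 lysosomal hydrolases and membrane proteins, 22 were lower and none higher, with a median of -0.30 (edgeR; none higher by DESeq2, 1 at an unadjusted p under 0.05). The count of lower genes was 8 without IFN 2, 34 without IFN 4, 4 without the 3 Nos2-high libraries and 0 in the fit of the 10 libraries. Of 17 V-ATPase subunits, which acidify the lysosome, 11 were lower (2 without IFN 2, 7 without UT 1, none in the fit of the 10 libraries). Of 29 efferocytosis and scavenger receptor genes 6 were higher and 3 lower (3 and 2 without IFN 2), and of 12 Fc and complement receptors 1 was higher and 2 lower, with no call without IFN 2. Mfge8, which bridges dying cells to phagocytes, stood at 655, 564, 528, 464 and 329.8 CPM in UT and 214, 33.7, 131, 153 and 112 CPM in IFN. IFN 2 was lowest, yet all IFN libraries lay below all UT libraries (-1.98 ± 0.34, adjusted p = 4.99e-05; -1.72 without IFN 2). Ctsk, a collagen-cutting cathepsin, fell from 235 to 426 CPM to 9.49 to 172 CPM (-1.53 ± 0.33, adjusted p = 0.000615; -1.22 without it). Gm2a, the activator that presents gangliosides to lysosomal enzymes, fell by 0.83 ± 0.13 (adjusted p = 5.5e-06; -0.66 without IFN 2), and the cathepsin Ctsl fell by 0.86 ± 0.22 (adjusted p = 0.00367; -0.64). The acid phosphatase Acp5 fell by 0.79 ± 0.18 (-0.56 without IFN 2) and the proton channel subunit Atp6v0c fell by 0.47 ± 0.12 (-0.32).

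Among Lrrk2 substrates and partners, 9 of 20 were lower and 2 higher. The lower count was 5 without IFN 1, IFN 3 or IFN 5, 4 without UT 1, 2 without IFN 2 and 0 in the fit of the 10 libraries. Rab35, a small GTPase of endosome recycling that Lrrk2 phosphorylates, stood at 104, 95.8, 95, 90.4 and 99.4 CPM in UT and 76.2, 80, 75.7, 86.4 and 77.7 CPM in IFN. No UT library reached down to the IFN range (-0.29 ± 0.053, adjusted p = 8.05e-05; -0.28 without IFN 2). Rab38, a GTPase of lysosome-related organelles, fell by 0.94 ± 0.23 (adjusted p = 0.00251; -0.69 without IFN 2). Its relative Rab32 was higher by 0.46 ± 0.13 (adjusted p = 0.00951), a call lost without IFN 2 (adjusted p = 0.11).

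Cell cycle genes were lower. Of 33 proliferation and replication genes 23 were lower and none higher, with a median of -0.80 (edgeR; none higher by DESeq2 or at an unadjusted p under 0.05). There were 10 without IFN 2, 11 without UT 2, 13 without UT 3, 9 without the 3 Nos2-high libraries and 1 in the fit of the 10 libraries. Pcna, the sliding clamp of replication, stood at 187, 204, 207, 183 and 199.9 CPM in UT and 133, 85.8, 154, 163 and 138 CPM in IFN. The ranges were apart (-0.54 ± 0.13, adjusted p = 0.00171; -0.4 without IFN 2). Pcna was 1 of 2 genes among the 33 for which the labels did not overlap, against 9.15% of all genes. The summed level of the 33 genes was 473 CPM in UT 1, within the IFN range of 350 to 593 CPM. In the other UT libraries it was 727 to 874 CPM. Foxm1, a regulator of mitosis, and Rrm2, a subunit of ribonucleotide reductase, overlapped through UT 1, which at 4.32 and 4.21 CPM was as low as the IFN libraries. Foxm1 fell by 1.11 ± 0.23 (adjusted p = 0.00059; -0.99 without IFN 2), and Rrm2 changed by -1.3 ± 0.39 (adjusted p = 0.0149), a call lost without IFN 2 (adjusted p = 0.0796) or UT 2 (0.0519).

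Other genes of the macrophage side were lower too, and of those that follow Wfs1 alone overlapped between the labels. Vsig8, Trim29 and Wfs1, the last an endoplasmic reticulum membrane protein, changed by -1.96 ± 0.34, -1.52 ± 0.25 and -1.31 ± 0.26 (adjusted p = 4.69e-05, 2.53e-05 and 0.000274). Without IFN 2 the changes were -1.66, -1.33 and -1.09. Pros1, a ligand of the receptors that clear dying cells, fell by 0.53 ± 0.12 (adjusted p = 0.00114), and Tkt, transketolase of the pentose phosphate pathway, fell by 0.44 ± 0.1 (adjusted p = 0.00104). Mgl2, a lectin of alternatively activated macrophages, fell by 2.03 ± 0.34 from a UT range of 1.35 to 4.83 CPM (adjusted p = 2.53e-05; -2.09 without IFN 2). Batf3, a transcription factor known from dendritic cells, fell from 12 to 16 CPM to 3.51 to 8.02 CPM (-1.12 ± 0.18, adjusted p = 1.77e-05; -0.95 without IFN 2), although 1 of 11 dendritic cell genes was higher and 1 lower, the latter alone being called without IFN 2.

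Genes of resident large peritoneal macrophages were higher, and most of them lost their call without IFN 2. Of 20 resident genes 13 were higher and 1 lower, with a median of 1.05, against 2 higher and 1 lower and a median of 0.75 without IFN 2, and 1 higher in the fit of the 10 libraries. Prg4, the lubricant proteoglycan 4, stood at 54.9, 29.4, 30.4, 55 and 60.9 CPM in UT and 173, 1479, 92.6, 91.4 and 127 CPM in IFN. All IFN libraries lay above all UT libraries, IFN 2 by far, and the rise of 3.09 ± 0.7 (adjusted p = 0.00139) became 1.41 without that library (adjusted p = 0.144). F5, coagulation factor V, went from 2.57 ± 0.6 (adjusted p = 0.00185) to 0.77 (adjusted p = 0.359). Marco, a scavenger receptor for bacteria and particles, stood at 85.1, 33.2, 32.9, 79.6 and 73.7 CPM in UT and 259.5, 1573, 379, 414 and 140.4 CPM in IFN. Its labels did not overlap, and the rise of 3.18 ± 0.59 (adjusted p = 0.000123) remained without IFN 2 at 2.3 (adjusted p = 0.00486), though Marco, Prg4 and F5 all tracked lymphocytes in the other libraries. Cd5l, a scavenger protein of tissue macrophages, was high in IFN 3 and IFN 4 (452 and 503 CPM) and near the UT range of 139 to 180.1 CPM in the rest (0.96 ± 0.26, adjusted p = 0.00612; 1.11 without IFN 2, adjusted p = 0.00397).

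A further set of rises lost their call without IFN 2. Serpinb2, a plasminogen activator inhibitor of macrophages, stood at 0.414, 1, 1.27, 1.17 and 1.02 CPM in UT and 2.69, 83.1, 2.08, 1.51 and 3.27 CPM in IFN. IFN 2 stood far above every other library, and the change of 4.24 ± 0.87 (adjusted p = 0.000386) became 1.31 without it (adjusted p = 0.233). Slc7a11, the cystine importer of the NRF2 programme, went from 2.44 ± 0.45 (adjusted p = 0.00012) to 0.73 (adjusted p = 0.113), and of 18 NRF2 targets 5 were higher and 2 lower, 0 and 1 without IFN 2, and 9 higher without IFN 3. The matrix protein Fn1 went from 1.4 ± 0.37 to 0.35 (adjusted p = 0.00519 and 0.5) and the heat shock gene Hspa1b from 1.51 ± 0.38 to 0.39 (adjusted p = 0.00345 and 0.457). The complement gene C4b was above its UT range of 154 to 240.1 CPM in every IFN library (393 to 2666 CPM), and its change of 2.21 ± 0.5 (adjusted p = 0.00121) was 1.31 without IFN 2 (adjusted p = 0.0624). By contrast the immediate-early gene Egr3 remained higher (3.18 ± 0.47, and 2.0 without IFN 2).

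The effect of the label was then compared with that in 3 other groups of mice, by a test of the difference itself. Against wild-type old males, 23 genes differed (0.104% of those tested), 16 with a higher and 7 with a lower effect in females, and without IFN 2 the counts were 7 and 3. Scd2 fell in old females but averaged 49.2 CPM in UT and 43.4 CPM in IFN in old males, a difference of effects of -1.87 ± 0.42 (adjusted p = 0.0444; -1.94 without IFN 2, adjusted p = 0.0522). For Pf4 the difference was -1.27 ± 0.25 (adjusted p = 0.0126) and for Bmpr1a 1.19 ± 0.24 (adjusted p = 0.0192). Marco averaged 154 CPM in male UT and 52.1 CPM in male IFN, the opposite order to that in females, and differed by 4.75 ± 0.84 (adjusted p = 0.00581; 3.86 without IFN 2, adjusted p = 0.0399). Ptges, which makes prostaglandin E2, differed by 5.07 ± 0.98 (adjusted p = 0.0126; adjusted p = 0.175 without IFN 2). The inhibitory receptor Cd33 differed by 1.76 ± 0.4, Cxcl1 by 2.61 ± 0.5, and Ksr2 and the kinesin gene Kif19a by -1.3 ± 0.27 and -1.3 ± 0.28 (adjusted p = 0.0492, 0.0126, 0.026 and 0.0302). Without IFN 2 the calls for Bmpr1a, Cd33 and Kif19a were lost (adjusted p = 0.0766, 0.204 and 0.0766).

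Against wild-type young females, 401 genes differed (1.81%), 47 with a higher and 354 with a lower effect in the old, and without IFN 2 the counts were 75 and 557. The IFN-γ response made up many of the lower ones: 9 of 11 guanylate-binding proteins, with a median difference of -2.97, 8 of 9 immunity-related GTPases, 8 of 18 receptor, JAK-STAT, IRF and SOCS genes, 8 of 14 class II and 10 of 23 class I genes. Gbp2 differed by -3.58 ± 0.8 (adjusted p = 0.00613), Gbp5 by -3.14 ± 0.8 (adjusted p = 0.0216), Ciita by -3.11 ± 0.51 (adjusted p = 0.00012) and Pdcd1lg2 by -4.08 ± 0.48 (adjusted p = 3.44e-07). For each of these genes the young IFN mean exceeded the young UT mean, and both lay below every old library. Lrrk2, which tracked lymphocytes, differed by -1.44 ± 0.38 (adjusted p = 0.033). It averaged 29.7 CPM in young UT and 105 CPM (52.9 to 182) in young IFN, against 99.4 to 134 and 99.9 to 226 CPM in the old libraries. With the lymphocyte scores as terms, the change of Lrrk2 between the labels in old females was -0.72 (adjusted p = 0.135). Scd2 again differed, by -2.03 ± 0.44 (adjusted p = 0.00463), with young means of 40.4 and 39.6 CPM. For B cells, Cd79a differed by -0.73 ± 0.88 (adjusted p = 0.842). Ddx3y ran from 0.125 to 8.93 CPM in the young IFN libraries, where Xist was 263.7 to 333 CPM. In young UT it ran from 0.347 to 1.48 CPM. Why this Y-linked RNA was present in libraries labelled female was not tested.

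**Figure D5:**
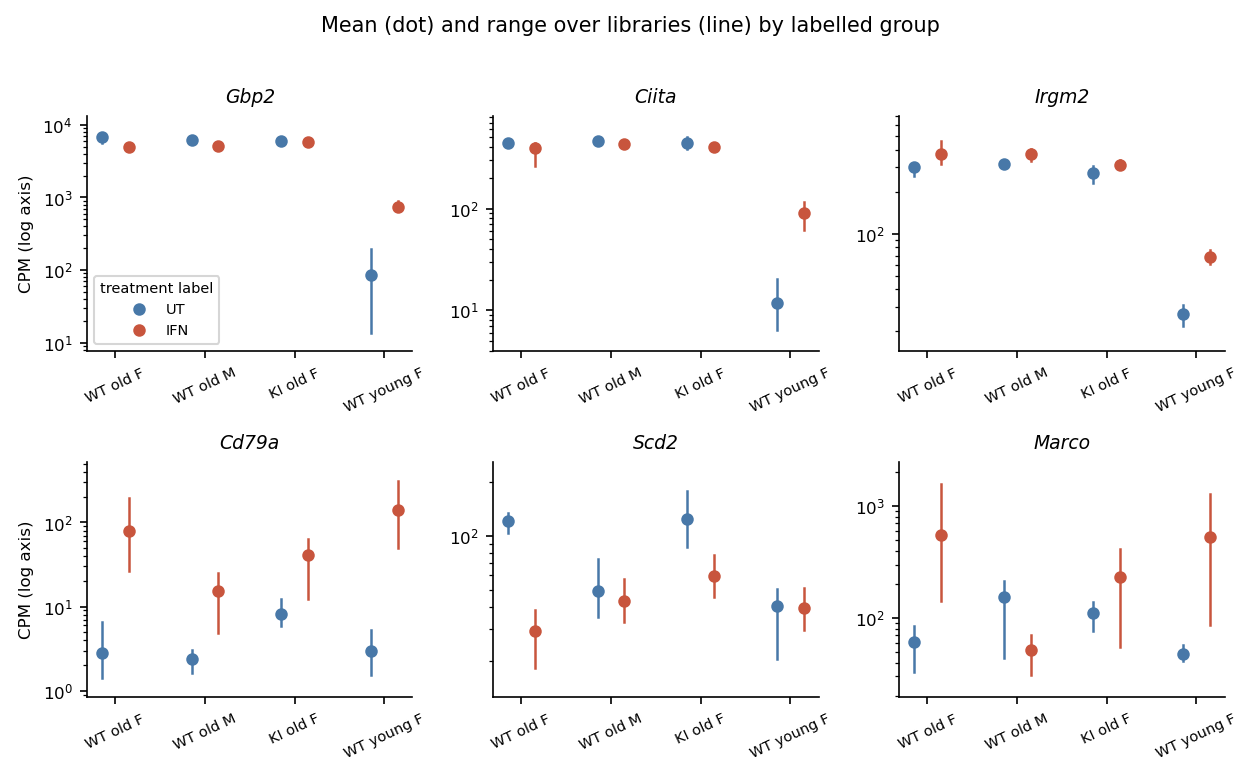
Mean (dot) and range over libraries (line) of 6 genes in CPM (log axis), by labelled group and treatment label; WT is wild-type, KI the R1441C knock-in, F female and M male. Gbp2, Ciita and Irgm2 are high in all old groups and low in young females, and Scd2 separates the labels in wild-type old females but not in wild-type old males.

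Against R1441C knock-in old females, 2391 genes differed (10.8%), 987 with a higher and 1404 with a lower effect in wild-type. The split was 1332 and 955 with relative log expression scaling and 376 and 863 without IFN 2. It was 395 and 554 without the knock-in libraries IFN 4 and IFN 5, whose Xist level is low for their female label. Over the knock-in IFN libraries Xist ran from 1.55 to 207.8 CPM. Ddx3y stayed at no more than 0.624 CPM in them, against 46.5 to 59.0 CPM in wild-type old male IFN. The reason for the low Xist was not tested. The respiratory chain stood out by count, with 40 of 49 subunits lower in effect, and 12 of 50 lysosomal genes and 6 of 17 V-ATPase subunits were lower too. Uqcrfs1 differed by -0.35 ± 0.1 (adjusted p = 0.0189; -0.3 and adjusted p = 0.0692 without the 2 knock-in libraries), and its knock-in means were 86.3 CPM in UT and 84.4 CPM in IFN. Irf8 differed by -0.69 ± 0.16 (adjusted p = 0.0134), Ifi30 by -0.74 ± 0.16 (adjusted p = 0.0124) and Gm2a by -0.77 ± 0.18 (adjusted p = 0.0134). Of 24 B cell genes 7 had a higher effect and 1 a lower, and Cd79a differed by 2.5 ± 0.76 (adjusted p = 0.0288; 1.95 and adjusted p = 0.113 without the 2 knock-in libraries, 1.83 and adjusted p = 0.115 without IFN 2). Its knock-in means were 8.06 CPM in UT and 40.9 CPM in IFN. Gbp2 differed by -0.39 ± 0.67 here (adjusted p = 0.756) and by -0.16 ± 0.72 against wild-type old males (adjusted p = 0.949).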

How the data were processed

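The authors deposited a table of raw read counts, which was used as it stands, and an FPKM table of the same libraries, which was not used here. Per the submitters' processing notes the tools were STAR 2.7.9a (build GRCm39) and DESeq2 1.40.2. How reads were counted, with which annotation and strand setting, is not given in the sources used here. Overlapping genes and near-identical copies, such as globins, class I genes and V segments, may therefore share reads. Of 56748 genes, 17641 had no count, and 52073 were given a symbol from a GRCm38 annotation, used for names only. Promoters are RefSeq's (GRCm38.p6).

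Genes with too few counts were dropped with filterByExpr over the 16 groups, which kept 22147 genes with 99.992% of counts. Counts were scaled with TMM factors (0.905 to 1.048 in the 10 libraries) and tested with the edgeR 4.0.16 quasi-likelihood test (R 4.3.3). The model held all 63 libraries, a term for each group and 47 residual degrees of freedom. Benjamini-Hochberg adjusted p-values were called at 0.05. Alternatives were to leave out each library, relative log expression scaling, no filter, the 10 libraries alone, DESeq2 1.42.0, a replicate block, lymphocyte genes left out of the scaling, lymphocyte scores as terms, and the knock-in libraries IFN 4 and 5 left out. Joining libraries that resemble each other and leaving out the 3 libraries high in Nos2 were added after seeing the data. In counts simulated for this contrast over 22147 genes, 64% of genes raised 1.5-fold, 94% raised 2-fold and 84% halved were called. Of the calls, 5.52% were false. The simulated libraries were independent, with a single spread per gene and none set apart as IFN 2 is, so these rates need not hold for the data.

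The libraries compared and the gene lists were chosen with earlier results of these data known. Genes given with values come from a fixed rule: 10 check genes, the macrophage-side genes with the largest rises and falls and the lymphocyte-side genes with the largest rises among those called, from each list the called members with the smallest adjusted p, or where none was called those with the smallest p, and from each difference of effects the largest called genes each way, of which a part is printed. Gbp5, Hmgcs1 and Vpreb3 were added for their promoters. Levels below a few counts are known only within counting error.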

Additional observations from a re-analysis of the deposited data

Results flagged for a closer look

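Within a label, a library was listed for a gene where its distance to the nearest other library took up most of the range of the 5 (Dixon's criterion at 95%), which chance gives in about 1 of 20 groups. IFN 2 was far above the other IFN libraries for Cd79a (197 CPM), Igtp (736 CPM), Cxcl11 (8.2 CPM), Ddx58 (117 CPM), Isg20 (13.2 CPM), Ifi44 (64.8 CPM), H2-Eb2 (32.9 CPM), H2-Ob (108 CPM), Il10 (9.18 CPM) and Il18 (24.3 CPM). It was likewise far above them for Fn1 (3235 CPM), Marco (1573 CPM), C4b (2666 CPM), Serpinb2 (83.1 CPM), Prg4 (1479 CPM), F5 (82.3 CPM), Scd1 (53.2 CPM), Slc7a11 (209 CPM), Egr3 (16 CPM) and Hspa1b (34.5 CPM). The same held for Pou2af1 (58.8 CPM), Blk (79.3 CPM), Cd79b (159.7 CPM), Mzb1 (14.6 CPM), Cd2 (28 CPM), Cpa3 (15.9 CPM), Ptges (1223 CPM), Cd33 (153 CPM), Alox15 (93.8 CPM) and Adgb (173 CPM). IFN 2 was far below the other IFN libraries for Ciita (262 CPM), Ctsl (273 CPM) and Sc5d (18.5 CPM). UT 1 was far above the other UT libraries for Cxcl9 (4071 CPM), Nos2 (907 CPM), Cd79a (6.47 CPM), H2-Eb2 (0.918 CPM), H2-Ob (4.63 CPM), H2-Q7 (237 CPM), Ctsk (426 CPM), Hspa1b (6.29 CPM), Trim29 (8.84 CPM), Blk (1.61 CPM), Ighd (1.65 CPM), Cd79b (4.44 CPM) and Pdgfa (12.8 CPM). It was far below them for the macrophage marker Adgre1 (491 CPM). UT 4 was apart for F5 (5.37 CPM). IFN 1 was apart for Trim29 (4.48 CPM) and Cd8a (2.8 CPM). These genes span B cells, macrophages and stress responses, and the pattern rests on the same few libraries named in the report.

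For the genes below the effect of the treatment label in wild-type old females differed from that in another group by the edgeR test of the difference at an adjusted p of 0.05, and each value is the log2 effect in wild-type old females minus that in the other group. Against wild-type old males the effect was higher for Ptges (5.07), Marco (4.75), Cxcl1 (2.61), Cd33 (1.76) and Bmpr1a (1.19). It was lower for Scd2 (-1.87), Ksr2 (-1.3), Kif19a (-1.3) and Pf4 (-1.27). Without IFN 2 the difference stayed called for Pf4, Cxcl1, Marco and Ksr2 and for none of the others listed against that group. Against wild-type young females the effect was higher for Pdgfa (1.24), Gadd45a (1.03) and Slc22a4 (0.92). It was lower for Dnase1l3 (-4.78), Tlr12 (-4.45), Serpina3g (-4.32), Pdcd1lg2 (-4.08), Gbp2 (-3.58), Gbp5 (-3.14), Ciita (-3.11), Scd2 (-2.03), Lrrk2 (-1.44), Igtp (-1.34), Irgm2 (-1.02), Pros1 (-0.99), Pf4 (-0.93), Irf8 (-0.85) and Uqcrfs1 (-0.41). Without IFN 2 it was no longer called for Slc22a4. Against knock-in old females the effect was higher for Serpinb2 (4.39), Alox15 (3.34), Adgb (3.33), Derl3 (3.23), Pou2af1 (3.2), F5 (3.13), Ighd (3.08), Prg4 (3.0), Ptges (2.89), Slc7a11 (2.66), Egr3 (2.57), Cd79a (2.5), C4b (2.12), Fn1 (1.92), Cd33 (1.75), Scd1 (1.59), Bmpr1a (0.68) and Ddx58 (0.64). It was lower for Gprc5c (-1.31), Trim29 (-1.13), Pxmp2 (-1.09), Abcg1 (-0.89), Batf3 (-0.82), Acp5 (-0.82), Gm2a (-0.77), Ifi30 (-0.74), Irf8 (-0.69), Atp6v0c (-0.63), Rab35 (-0.37), Uqcrfs1 (-0.35) and Ifngr2 (-0.32). Without IFN 2 the difference stayed called for Irf8, Ifngr2, Ifi30, Gm2a, Atp6v0c, Uqcrfs1, Abcg1, Rab35, Derl3 and Cd33 and for none of the others listed against that group. Without the knock-in libraries IFN 4 and IFN 5 it stayed called for Irf8, Ifngr2, Ifi30, Gm2a, Acp5, Atp6v0c, Slc7a11, Egr3, Rab35, Trim29, Ighd, Cd33, Adgb and Gprc5c and for none of the others listed against that group.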

How the results depend on the processing

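Leaving out each library in turn gave 825 to 2312 genes higher and 780 to 2957 lower for the label effect, with the lowest counts of both without IFN 2. The differences of effects without that library were 7 higher and 3 lower against wild-type old males, 75 and 557 against wild-type young females and 376 and 863 against knock-in old females. A fit of the 10 libraries alone called 677 and 175, no filter gave 1459 lower, joining all libraries that resemble each other 522 lower, leaving out the 3 libraries high in Nos2 440 and 297, and lymphocyte scores as terms 886 and 589. Relative log expression scaling gave 2119 and 1664. The cause of these shifts was not tested, beyond the smaller number of libraries where some were left out.

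For the differences, no filter gave 4 lower against old males, 27 higher against young females and 577 higher against knock-ins. Lymphocyte scores as terms gave 4 and 1 against old males and 655 and 538 against knock-ins, and leaving out the knock-in libraries IFN 4 and 5 gave 395 and 554. Among the genes called lower, those running opposite to lymphocytes numbered 600 at a correlation of 0.5, 1028 at 0.4, 263 at 0.6 and 1015 when only wild-type libraries were used.

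Whether replicate numbers pair the samples is not known, as no label says what a number marks. Same-numbered libraries had correlations of 0.365, -0.137, 0.161, -0.062 and 0.056, and differently numbered ones had -0.275 to 0.246. These ranges overlap and cannot decide the question. A replicate block gave 1568 genes higher and 2512 lower, and 74 of 81 called genes given with values stayed called.

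Of those 81 genes all kept their direction in every setting but the lymphocyte scores as terms. Fewer stayed called: 64 without IFN 2, 48 without the 3 libraries high in Nos2 and 42 in the fit of the 10 libraries alone. Of all 4252 calls, 716 were kept without those 3 libraries and 840 in the fit of the 10 alone. With the scores as terms the log2 change turned to -0.74 for Cxcl11, -0.048 for Ddx58, -0.19 for Isg20, -0.31 for Ifi44, -0.95 for H2-Eb2, -1.33 for H2-Ob, -1.26 for H2-Q7, -0.46 for Fn1, 0.35 for Ctsl, 0.049 for Atp6v0c, -0.30 for Marco, -1.14 for C4b, -0.68 for Serpinb2, -1.94 for Prg4, -2.0 for F5, -0.31 for Scd1, 0.038 for Sc5d, 0.56 for Rrm2, 0.033 for Pcna, -0.18 for Slc7a11, -0.21 for Egr3, -0.78 for Hspa1b, 0.26 for Rab38, -0.77 for Blk, -0.33 for Cd2, -1.87 for Cpa3, -0.076 for Il5ra, -1.12 for Ptges, -2.25 for Alox15, -0.68 for Adgb and 0.40 for Hmgcs1. Of these H2-Ob, F5 and Prg4 were called lower. Nos2, not called in the fit without the terms, was called lower with them (-3.49, adjusted p = 0.0476) and stood at -0.053 without IFN 2. The mean B cell and T cell levels do not overlap between the labels, so these terms and the label can be told apart only through the spread within groups. That spread includes these 10 libraries, IFN 2 among them. Depth was near 100 M counts in each library and limits only genes at a few counts, such as Cd3d in UT.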

Other observations

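Other gene groups of the same libraries gave mixed counts. Of 9 neutrophil genes 4 were lower and 1 higher, against 2 and 0 without IFN 2, and 2 were lower without IFN 1, UT 2 or UT 3. Of 5 eosinophil genes 2 were higher and 1 lower, against 1 higher without IFN 2. Il5ra, the interleukin-5 receptor of eosinophils and B-1 cells, rose from 0.125 to 0.593 CPM to 1.68 to 15.1 CPM (4.26 ± 0.75, adjusted p = 6.26e-05; 3.73 without IFN 2) and tracked lymphocytes. Siglecf, an eosinophil lectin, changed by -1.03 ± 0.31 (adjusted p = 0.0158), a call lost without IFN 2 (adjusted p = 0.0561) or UT 1 (0.0598). Alox15, an enzyme of resident macrophages and eosinophils, went from 2.52 ± 0.69 (adjusted p = 0.00783) to 1.07 without IFN 2 (adjusted p = 0.32).

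Of 17 Toll-like receptors and adaptors 5 were higher and 3 lower, and without IFN 2 these counts were 2 and 1. Of 26 immediate-early and heat shock genes 8 were higher and 5 lower, against 2 and 3 without IFN 2. Alternative activation and arginine metabolism gave 6 higher and 2 lower of 20, against 1 and 1 without IFN 2. Of 20 pan-macrophage identity genes 2 were higher and 4 lower, and none was called without IFN 2, and their summed level took 60790 to 64090 CPM in UT and 40980 to 59130 CPM in IFN. Complement components gave 3 higher of 11, and 2 without IFN 2. The unfolded protein and integrated stress response gave 1 lower of 22, but 2 higher without IFN 2 and 2 lower without IFN 4 or UT 4.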
